A study of Homo sapiens with 4 samples.

Results

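The genes described here are 10 imprinted genes, among them MEST, the gene that carries miR-335 within its span. They were chosen by name (MEST, COPG2, H19, MEG3, CDKN1C, PEG3, PEG10, PLAGL1, GRB10 and SNRPN), as every probe on the array with 1 of these gene names that is not a control. That gave 16 probes of 50599 on the array, and 10 gene names of 36337. Expression was measured in GIST-T1, an established cell line grown from a human gastrointestinal stromal tumor (GIST). The cells received 100 pmol of a mirVana miR-335 mimic (a synthetic double-stranded RNA made to act as the mature miRNA) or of mirVana miRNA mimic Negative Control #1. RNA was taken 48 h later, 100 ng of it was labeled with Cy3, and the labels put 2 arrays in each group. Both groups are the same cell line and went through transfection, so no untransfected cells enter the comparison. The titles and the treatment text name the miR-335 mimic, but 1 line of both mimic descriptions reads miR-34a mimic; the groups follow the titles.

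Imprinted genes are read mainly or only from the chromosome copy of 1 parent. The choice is set by DNA methylation laid down in the egg or sperm at imprinting control regions, and the genes sit in clusters in which noncoding RNAs and protein-coding genes often come from opposite parental copies. Many of them act on growth before birth, and loss of the methylation mark can silence a gene or switch on the normally silent copy.

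MEST is maternally silenced and encodes a protein of the hydrolase fold family. In RefSeq (GRCh38.p14) the miR-335 hairpin lay inside MEST, on the same strand, at chr7:130496111-130496204. It began 9936 bases from the start of the 20291-base gene. The gene spans of MEST and of its neighbor COPG2 shared 228 bases. The hairpin is shown because it is the link between MEST and the transfected molecule, with both mature strands in capitals, followed by the mature strands with the seed, bases 2 to 8, in capitals.
MIR335 hairpin: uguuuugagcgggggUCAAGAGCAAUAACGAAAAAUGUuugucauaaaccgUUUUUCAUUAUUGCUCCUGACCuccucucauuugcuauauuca
hsa-miR-335-5p (chr7:130496126-130496148): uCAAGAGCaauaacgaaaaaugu
hsa-miR-335-3p (chr7:130496162-130496183): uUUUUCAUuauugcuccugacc

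The 7-base sites that pair with these seeds are GCTCTTG for the 5p strand and ATGAAAA for the 3p strand. Of the 16 probes of the 10 genes, 0 held GCTCTTG and 0 held ATGAAAA, read on either strand. Among all 50599 probes, 0.437% held GCTCTTG and 1.22% held ATGAAAA in the sense direction. A probe is only 60 bases of its transcript, and the rest of each transcript was not searched.

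Detection was looked at first. The scanner software flags each spot that is well above background, and a probe was taken as detected on an array if the flagged share of its usable spots reached 0.5. On this rule 12 of the 16 probes, covering 7 genes, were detected on each of the 4 arrays. The other 4 probes, of MEST, PEG3 and SNRPN, were well above background on 0 arrays. By this rule no probe lay between these outcomes, so the mimic arrays and the control arrays detected the same 7 genes.

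The MEST probe (chr7:130145648-130145707 in hg19, plus strand) read 6.56 and 5.69 intensity units on mimic arrays 1 and 2. On control arrays 1 and 2 it read 5.40 and 4.65 units. All 4 values were close to the 95th percentile of the negative control probes of the same arrays, which was 6.26 and 6.98 units for the mimic and 6.49 and 5.52 units for the control arrays. Only the value on mimic array 1 was above its own array's percentile. The 2 groups gave no measurable level of the host transcript to compare, and the array held 0 probes named for MIR335 itself.

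PEG3, a paternally expressed zinc finger gene, was likewise not well above background. Its probe A_23_P407583 read 6.87 and 5.53 units on the mimic arrays and 5.34 and 4.56 units on the control arrays. Its probe A_33_P3424057 read 11.8 and 5.72 units on the mimic arrays and 7.997 and 4.69 units on the control arrays. The first array of each group was the higher one for both probes. The SNRPN probe, for a paternally expressed spliceosome protein of the Prader-Willi region, read 5.42 and 5.84 units on the mimic arrays against 5.69 and 4.83 units on the control arrays.

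**Figure D1:**
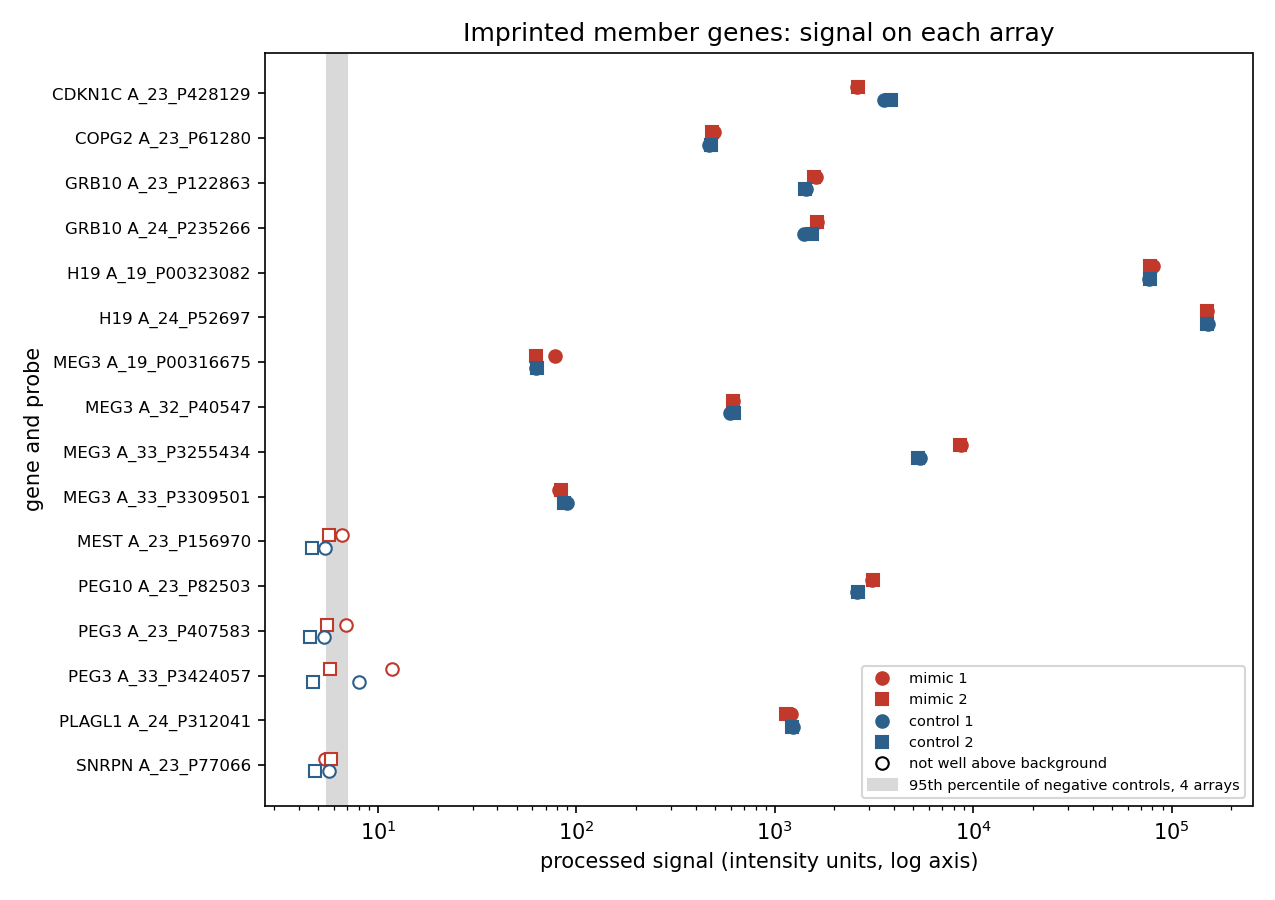
Processed signal (intensity units, log axis) of the 16 probes of the 10 imprinted genes on each of the 4 arrays, with red for mimic and blue for control, circles for replicate 1 and squares for replicate 2. Open symbols are not well above background, and the gray band spans the 95th percentile of the negative control probes, 5.52 to 6.98 units. The 4 probes of MEST, PEG3 and SNRPN lie at or near the band, and the 12 probes of the other 7 genes lie far to its right; brightness is not comparable between probes.

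The whole array set the background for what follows. Between 40.3% and 41.9% of probes were well above background per array, and 20328 probes could be tested. The 4 arrays shared 1 slide and 1 scan, with the controls at positions 1 and 2 and the mimic samples at positions 3 and 4, so slide position and treatment cannot be told apart. The 6 markers of GIST (KIT, ANO1, ETV1, PRKCQ, CD34 and PDGFRA) were each detected on every array, KIT at normalized log2 values of 7.14 to 7.49. Of 4 markers of other cell types, S100B and PTPRC were not well above background on any array, while the muscle gene DES lay between 0.37 and 0.72 and the epithelial gene EPCAM between −2.15 and −0.54. Nothing in the labels says that the 2 samples of a group came from separate cultures, so p-values measure the spread between these samples, which may be technical.

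Values are given below as normalized log2 signal, the log2 of the processed signal minus the 75th percentile of the array, and changes as the mean of the mimic arrays minus the mean of the control arrays. Over the 12 tested probes, limma called 1 lower (CDKN1C) and 1 higher (a MEG3 probe) at a Benjamini-Hochberg adjusted p under 0.05. Over all tested probes 2.62% were called in either direction, and 1.47% were called higher. At an unadjusted p under 0.05, 4 of the 12 passed, against 25.3% of all tested probes. The groups did not overlap for 9 of the 12, against 59.7% of all tested probes. The median change of the 12 was −0.0032 and that of all tested probes −0.01. An exact permutation test of 2 against 2 arrays has a smallest two-sided p of 0.333, so single values rest on limma's spread pooled over probes.

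**Figure D2:**
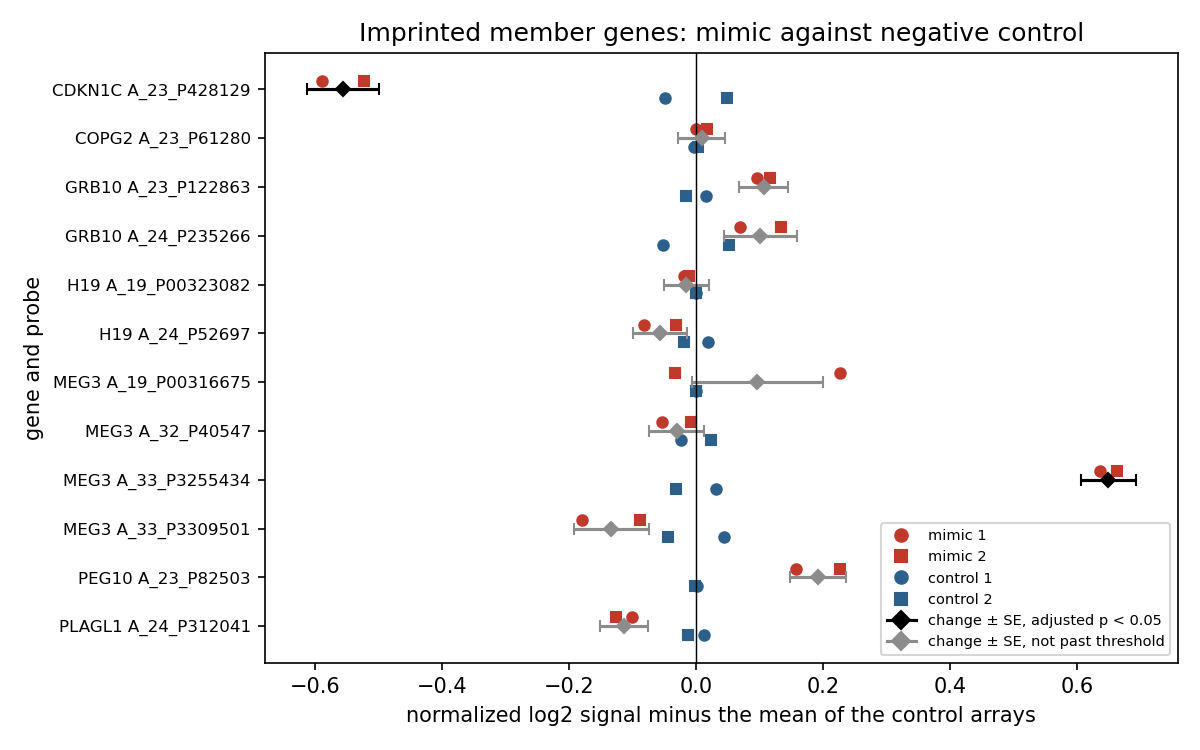
Normalized log2 signal of each array minus the mean of the control arrays for the 12 tested probes, with red for mimic and blue for control arrays, and diamonds for the change ± SE from limma (2 arrays per group). CDKN1C stands at −0.56 and MEG3 probe A_33_P3255434 at 0.65 (black diamonds, past the threshold), and the other 10 changes lie between −0.13 and 0.19.

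COPG2, on the other strand beside MEST, encodes a coat subunit of vesicles that move between the Golgi apparatus and the endoplasmic reticulum. Its probe (chr7:130146388-130146447 in hg19) ended 680 bases from that of MEST. Normalized values were 1.38 and 1.40 on the mimic arrays and 1.38 and 1.39 on the control arrays. The groups overlapped, with a change of 0.01 ± 0.04 (limma adjusted p = 0.897) that turned to −0.18 with scaling to the external spike-in RNAs. So 1 gene of this neighboring pair was well above background on every array and the other on none. MESTIT1, a noncoding antisense RNA of MEST, had 2 probes, and both were well above background on 0 arrays, as were the probes of KLF14 and CPA4 from the same band. Within 250000 bases of the pair, 10 of 14 probes were well above background on 0 arrays.

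On chromosome 11p15, H19 and CDKN1C belong to separate imprinted domains, both expressed from the maternal copy. CDKN1C encodes p57, an inhibitor of cyclin-dependent kinases. Its probe (chr11:2904903-2904962 in hg19, minus strand) gave 2590 and 2615 intensity units on the mimic arrays and 3551 and 3861 units on the control arrays. As normalized values these were 3.77 and 3.84 with the mimic, and 4.31 and 4.41 with the control. The mimic arrays lay below both control arrays. The change was −0.56 ± 0.06, or 1.47-fold brighter in the control group, with a limma adjusted p of 0.046. Left out in turn, mimic 1, mimic 2, control 1 and control 2 gave −0.52, −0.59, −0.61 and −0.51, with limma adjusted p of 0.196, 0.196, 0.152 and 0.154, none past the threshold. With the replicate number as a block the limma adjusted p was 0.125.

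H19 is a long noncoding RNA that also carries a miRNA. Its probe A_24_P52697 gave 149890 to 151743 units, with 0 saturated spots. Normalized values of this probe were 9.63 and 9.68 with the mimic and 9.73 and 9.69 with the control. The change was −0.06 ± 0.04 (limma adjusted p = 0.458). The other probe, A_19_P00323082, gave 8.72 and 8.73 against 8.74 and 8.74, a change of −0.02 ± 0.04 (limma adjusted p = 0.815). The mimic arrays lay below the control arrays with both probes, and neither difference passed the threshold. With spike-in scaling A_24_P52697 was at −0.25 and past it (limma adjusted p = 0.0226). IGF2, the growth factor gene that shares its enhancers with H19, differed by −0.07 ± 0.04 on its brighter probe and −0.23 ± 0.05 on the other (limma adjusted p = 0.322 and 0.12).

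Within 250000 bases of CDKN1C lies KCNQ1OT1, a paternally expressed noncoding RNA antisense to KCNQ1. Its probe gave normalized values of −1.42 and −1.69 on the mimic arrays, which were well above background. The values of −2.87 and −2.77 on the control arrays were not. On the processed signal the mimic group was 2.41-fold brighter in the fit (limma adjusted p = 0.0392). As the control values were not well above background, this fitted difference is not a measured size. The fitted value holds for the processed signal only, since a model-based background correction (normexp) gave a log2 difference of 0.48. With normexp the probe was still called (limma adjusted p = 0.0079), as were 1550 of all 20328 probes. The probe entered the test through the mimic group alone, which favored a higher call, and without the replicate arrays in turn its limma adjusted p lay between 0.147 and 0.189.

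MEG3, a maternally expressed long noncoding RNA of 14q32, had 4 probes, and 1 of them was called. The 4 probe sequences are shown because only the last of them, 31312 bases past the first, was called. Capitals mark AATAAA, the polyadenylation hexamer, which was searched on both strands and found in the sense direction in 1 of these 4 probes, and in 7.88% of all probes (3.74% on the other strand). Positions are in hg19, plus strand.
MEG3 A_32_P40547 (chr14:101295974-101296033): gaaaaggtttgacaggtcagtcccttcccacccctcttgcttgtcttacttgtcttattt
MEG3 A_19_P00316675 (chr14:101297360-101297419): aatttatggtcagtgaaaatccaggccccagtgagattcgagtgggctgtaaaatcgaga
MEG3 A_33_P3309501 (chr14:101325072-101325131): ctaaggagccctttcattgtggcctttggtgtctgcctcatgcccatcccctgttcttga
MEG3 A_33_P3255434 (chr14:101327286-101327345): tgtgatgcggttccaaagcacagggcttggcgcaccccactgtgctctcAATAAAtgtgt

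The last MEG3 probe gave 8686 and 8533 units on the mimic arrays and 5385 and 5240 units on the control arrays. Normalized, it was 5.52 and 5.54 with the mimic against 4.91 and 4.85 with the control. Both mimic arrays were above both control arrays, by 0.65 ± 0.04 or 1.57-fold, with a limma adjusted p of 0.0351. Without mimic 1, mimic 2, control 1 or control 2 the change was 0.66, 0.64, 0.68 or 0.62, and the limma adjusted p was 0.187, 0.196, 0.15 or 0.143. With the replicate number as a block the limma adjusted p was 0.125.

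The probe 2214 bases before it, A_33_P3309501, did not pass the threshold. It gave −1.21 and −1.12 with the mimic and −0.99 and −1.08 with the control, a change of −0.13 ± 0.06 (limma adjusted p = 0.269). At the 5′ side, A_32_P40547 gave 1.70 and 1.74 against 1.73 and 1.77, and the groups overlapped (−0.03 ± 0.04, limma adjusted p = 0.688). The neighboring A_19_P00316675 gave −1.29 and −1.55 against −1.51 and −1.51. There the mimic arrays lay on either side of the controls (0.10 ± 0.10, limma adjusted p = 0.596). Averaged over the 4 probes, the MEG3 change was 0.15, so the call for the gene rested on 1 probe; which MEG3 isoforms each probe measures was not tested.

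Transcripts past the first MEG3 probe on the same strand were then described, a region picked after values in these data had been seen. This maternally expressed strand holds MEG8 and the SNORD113 and SNORD114 small nucleolar RNA clusters. Of 54 plus-strand probes past the first MEG3 probe and within 250000 bases, MEG3 left aside, 33 were well above background on 0 arrays and 17 could be tested. Of the 17, 10 passed the filter through the mimic group alone, which favored a positive change, and no count is drawn from them. The 7 detected on every array had positive changes with a median of 0.60, and 2 of the 7 were called in a fit of such probes alone. That fit held 19352 probes from the whole array, of which 588 were called, 299 of them higher. Among the 20328 probes tested without this stricter filter, 53.8% had a negative change. As the region was picked for its values, these counts are a description.

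Of the 2 called probes, that of the transcript named Q8NDX4 lay 16776 bases past the first MEG3 probe. This is between the MEG3 probes at 1386 and 29098 bases, so the called Q8NDX4 probe was inside the MEG3 probe span. It gave 1.36 and 1.30 with the mimic and 0.69 and 0.71 with the control, a change of 0.63 ± 0.04 (limma adjusted p = 0.0351). Adjusted p-values in this paragraph are from the fit of all tested probes. The other Q8NDX4 probe, also detected on every array, differed by 0.46 ± 0.09 and did not pass the threshold (limma adjusted p = 0.0952). SNORD114-3 gave −1.21 and −1.15 against −2.29 and −2.25, a change of 1.09 ± 0.04 (limma adjusted p = 0.0314) that was 0.54 with normexp. For both called probes, the mimic arrays were above the control arrays. SNORD113-3, 1 of the 10 probes that entered through the mimic group, was well above background on the mimic arrays only. Its processed signal was at least 1.62-fold brighter there, and no test result is drawn from it. Copies of SNORD113 and SNORD114 are close in sequence, so a probe may bind several of them. With any single array left out, neither of the 2 called probes passed the threshold.

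On the paternally expressed side of the cluster, DLK1, a membrane protein related to Notch ligands, read lower on both mimic arrays than on both control arrays with each of its 2 probes, and neither difference passed the threshold. Its brighter probe gave 1.26 and 1.42 with the mimic and 1.79 and 1.61 with the control (−0.36 ± 0.09, limma adjusted p = 0.14). Its other probe differed by −0.31 ± 0.06 (limma adjusted p = 0.0882). RTL1, also paternally expressed, was well above background on 0 arrays. On its brighter probe DIO3, which encodes the enzyme that inactivates thyroid hormone, gave 0.59 and 0.63 against 0.23 and 0.26. There it was higher by 0.37 ± 0.04 (limma adjusted p = 0.0492), and by 0.18 with spike-in scaling. The other DIO3 probe was well above background on 0 arrays.

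**Figure D3:**
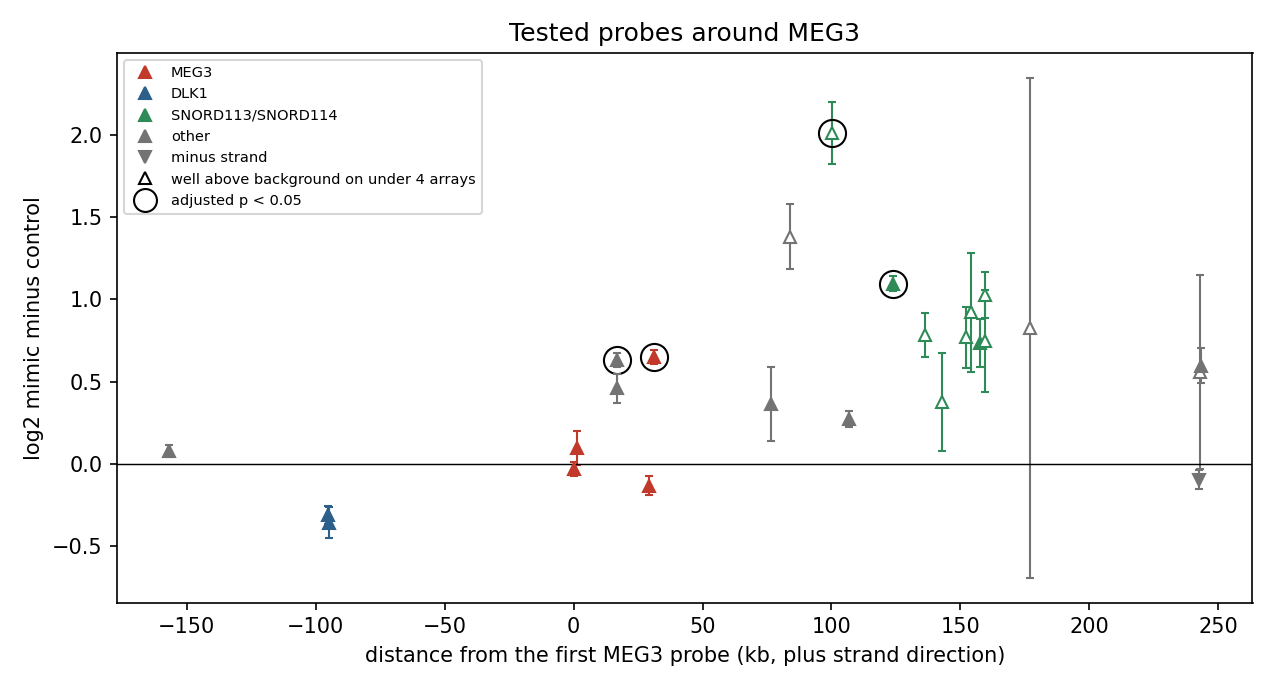
Change (log2 mimic minus control, ± SE from limma, 2 arrays per group) of the 25 tested probes within 250000 bases of the MEG3 probes, against distance from the first MEG3 probe. Filled symbols are well above background on all 4 arrays, open symbols on fewer, and circles mark an adjusted p under 0.05. Open symbols passed the filter through the mimic group, which favored a positive change, and their sizes are uncertain. Of the 4 MEG3 probes (red) only the last is clearly above 0, the 7 filled plus-strand symbols of other names past the first MEG3 probe are above 0, and both DLK1 probes are below 0.

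PLAGL1 encodes a zinc finger transcription factor and is expressed from the paternal copy. Its probe (chr6:144262830-144262889 in hg19, minus strand) gave 2.67 and 2.64 with the mimic and 2.78 and 2.76 with the control. Both mimic arrays were below both control arrays, with a change of −0.11 ± 0.04 (limma adjusted p = 0.189). With spike-in scaling the change was −0.30 and past the threshold. HYMAI, a noncoding RNA whose 3344-base span lies inside the PLAGL1 gene in RefSeq and which is expressed from the same parental copy, was called where PLAGL1 was not, and the difference between them was not tested. Its probe is shown because the HYMAI span lies inside PLAGL1. The span is in GRCh38.p14 and the probe position in hg19, and whether the probe falls within the span was not checked.
HYMAI A_33_P3308481 (chr6:144324174-144324233 in hg19, minus strand): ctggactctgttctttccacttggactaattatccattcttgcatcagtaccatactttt

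HYMAI gave 434 and 422 units on the mimic arrays and 217 and 208 units on the control arrays. Normalized values were 1.19 and 1.21 against 0.28 and 0.20. The mimic arrays were far above the control arrays, by 0.96 ± 0.05 (limma adjusted p = 0.0314), and without single arrays the change lay between 0.92 and 1.01 with a limma adjusted p between 0.127 and 0.189. The HYMAI and PLAGL1 probes lie on the same strand, and the gene spans overlap in RefSeq. Whether the HYMAI probe also reads unspliced PLAGL1 RNA was not tested.

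PEG10 is a paternally expressed gene derived from a retrotransposon. It gave 4.02 and 4.09 with the mimic and 3.86 and 3.86 with the control. Here the mimic arrays were the higher ones, by 0.19 ± 0.04, which did not pass the threshold (limma adjusted p = 0.12). The difference was 0.00 with spike-in scaling, and it passed the threshold only where limma's spread was allowed to follow brightness (limma adjusted p = 0.00943). SGCE, which shares the PEG10 promoter region, differed by −0.03 ± 0.05 (limma adjusted p = 0.733).

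GRB10 encodes an adaptor protein that binds growth factor receptors and is imprinted in some tissues. Its probe A_23_P122863 was printed 10 times on each array and gave means of 1610 and 1574 units on the mimic arrays and 1435 and 1426 units on the control arrays (0.11 ± 0.04, limma adjusted p = 0.208). The repeated spots show the precision within an array, with an SD of 0.05 to 0.07 on the log2 scale. On mimic 1, 1 of the 10 spots read 237700 units against 1482 to 1683 units for the other 9 and was left out as an outlier by the software's flag. The flag also took out 1 spot of 1603 units on control 1, where the other 9 reached at most 1517, and 1 of 1521 units on control 2, where they reached at most 1507. The other GRB10 probe gave 1627 and 1641 units against 1411 and 1539 units (0.10 ± 0.06, limma adjusted p = 0.355). Both probes were higher on both mimic arrays than on both control arrays, and neither passed the threshold; with spike-in scaling the direction turned, to −0.086 for the brighter probe.

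The loci of PEG3 and SNRPN were dim beyond the member probes. Around SNRPN, 58 of 63 probes were well above background on 0 arrays and 1 could be tested. These included the small nucleolar RNA clusters SNORD115 and SNORD116 and the gene SNURF. NDN and MKRN3, farther off in the same imprinted region, were also well above background on 0 arrays. The noncoding RNA IPW, with 11 probes, reached at most 2 arrays on any probe. MAGEL2, which lies between MKRN3 and NDN, was detected on every array, as were ATP10A and the ubiquitin ligase gene UBE3A elsewhere in the list for this region, UBE3A with a change of −0.07 ± 0.04 (limma adjusted p = 0.323).

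Around PEG3, 9 of 12 probes were well above background on 0 arrays, PEG3-AS1 and MIMT1 among them. Of the 3 that could be tested, 1 was called, that of ZIM2, a zinc finger gene that shares a promoter region with PEG3. It gave −1.51 and −1.41 with the mimic and −0.90 and −0.94 with the control. Both mimic arrays were below both control arrays, by −0.54 ± 0.05 (limma adjusted p = 0.0441). The change was −0.21 with normexp, and the limma adjusted p lay between 0.156 and 0.196 without single arrays.

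**Figure D4:**
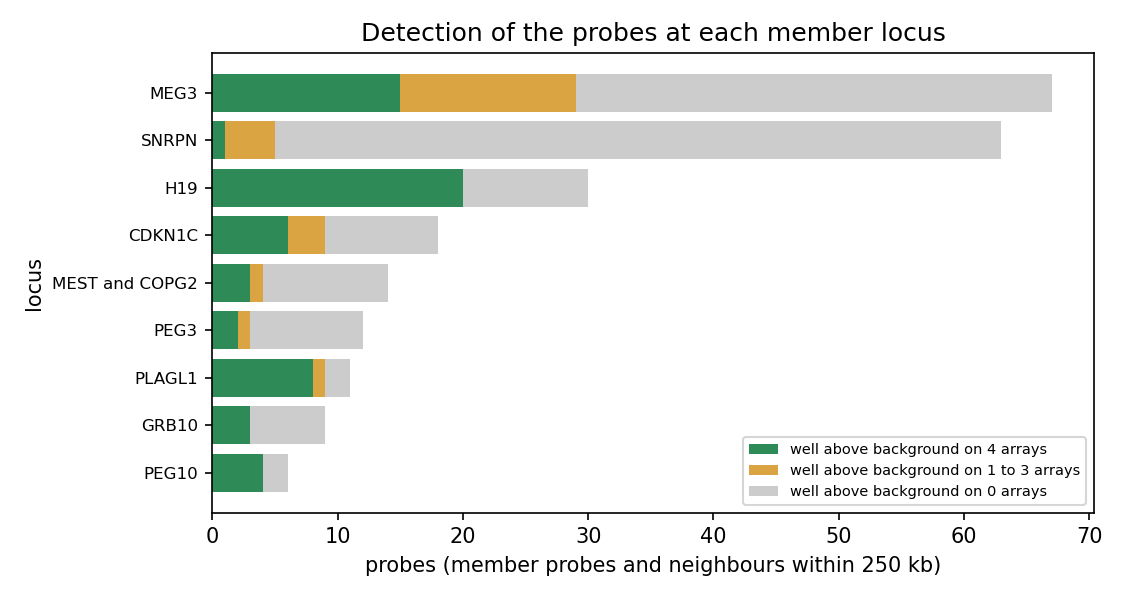
Number of probes at each locus of the 10 genes, counting the member probes and their neighbors within 250000 bases, stacked by the number of arrays on which a probe was well above background. At SNRPN 58 of 63 probes and at PEG3 9 of 12 were at 0 arrays, while at H19 20 of 30 and at PLAGL1 8 of 11 were well above background on all 4.

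A list of other imprinted genes, drawn up from general knowledge, gave the setting. Of 67 genes listed, 63 were on the array under the names used, with 103 probes. At least 1 probe was well above background on all 4 arrays for 26 genes, and 29 had none that was so on any array. With the brightest probe of each gene, 27 could be tested, and 2 were called lower (RB1 and ZIM2) and 3 higher (HYMAI, DIO3 and KCNQ1OT1). Over all 15454 tested genes, 1.34% were called lower and 1.42% higher by the same rule. KCNQ1OT1 passed the filter through the mimic group alone, which favored a higher call. With the filter on all 4 arrays, 2 of the listed genes were called lower and 2 higher. Under that filter 289 of all 19352 probes were called lower and 299 higher. The median change of the 27 was −0.03 and that of all tested genes −0.02, so the middle of the list stayed near that of the array. At an unadjusted limma p under 0.05, 11 of the 27 passed, against 4009 of all 15454 tested genes. All 5 calls were lost when any 1 array was left out (limma adjusted p from 0.127 to 0.201).

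RB1 encodes the retinoblastoma protein, which holds cells before DNA synthesis, and shows a partial parental bias. It gave 2.67 and 2.70 with the mimic and 3.30 and 3.27 with the control. On this probe both mimic arrays were the lower ones, by −0.60 ± 0.04 (limma adjusted p = 0.0348). GNAS, the gene of the stimulatory G protein alpha subunit, showed unequal changes among its probes, which were singled out after their values were seen. Its brightest probe differed by −0.22 ± 0.04 (limma adjusted p = 0.0873) and the next by −0.22 ± 0.04 (limma adjusted p = 0.083). A dimmer probe upstream, A_24_P168574, gave 318 and 281 units with the mimic against 494 and 499 units with the control, a change of −0.78 ± 0.06 (limma adjusted p = 0.0351).

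**Figure D5:**
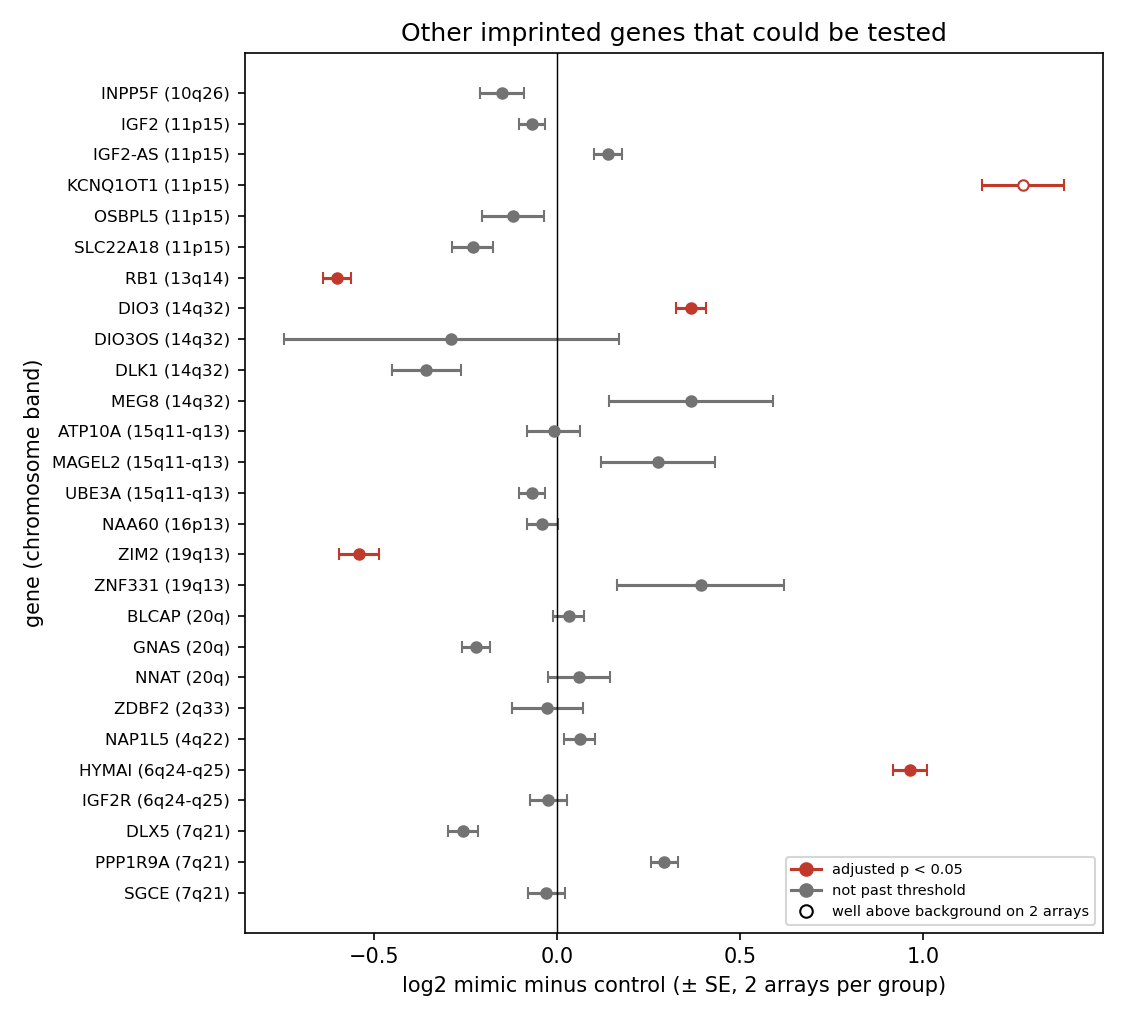
Change (log2 mimic minus control, ± SE from limma, 2 arrays per group) of the 27 other imprinted genes that could be tested, 1 probe each, ordered by chromosome band. Red marks the 5 genes with an adjusted p under 0.05, among them RB1 at −0.60 and HYMAI at 0.96. The open symbol marks KCNQ1OT1, which was not well above background on the control arrays, so its plotted position is not a measured size.

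Factors that maintain imprints were looked up as a further list. Of 10 genes, 6 could be tested and limma called 0 of them, while 3 had an unadjusted p under 0.05, as had 4009 of all 15454 tested genes. UHRF1, which guides maintenance methylation to newly copied DNA, gave 3.17 and 3.22 with the mimic and 2.95 and 2.96 with the control (0.24 ± 0.04, limma adjusted p = 0.081). DNMT1, the maintenance methyltransferase, differed by 0.16 ± 0.05 (limma adjusted p = 0.182), and ZNF445, a zinc finger protein that binds imprinting control regions, by 0.37 ± 0.10 (limma adjusted p = 0.149). TRIM28, the corepressor recruited by such proteins, differed by 0.04 ± 0.04, and CTCF, the insulator protein of the H19 locus, by 0.05 ± 0.07. ARID4B differed by −0.12 ± 0.07. ZFP57, DPPA3, CTCFL and ARID4A were not well above background on any array. The median of the 6 changes was 0.10, beside −0.02 for all tested genes.

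The genes whose pattern over the 4 arrays came closest to that of the last MEG3 probe were UNC80, LOC100505717 and XLOC_003405. The Euclidean distance between the centered normalized values was 0.0375, 0.0411 and 0.0428, out of 15454 genes searched. With only 4 arrays in 2 groups, such a likeness is mostly a likeness in the size of the difference, which was 0.62, 0.62 and 0.62 for these genes beside 0.65 for the MEG3 probe.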

How the data were processed

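The authors deposited 1 scanner file per array, written by Agilent Feature Extraction 10.7.3.1 per the file headers, with probe positions in hg19. Its processed intensity is background-subtracted and not normalized between arrays. The deposited value table of the series holds the same intensity, rounded, and served as an alternative. Controls and outlier spots were left out, spots of a probe were averaged as log2 values, and each array's 75th percentile was subtracted. Probes detected on both arrays of 1 group or of both were tested. The test was limma (version 3.58.1, R version 4.3.3, lmFit then eBayes, no covariates) with Benjamini-Hochberg adjustment over all tested probes and a threshold of 0.05, after a run on simulated data. Only 2 arrays per group limit the precision.

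The 10 genes and all lists were chosen with earlier results of these data known. Every probe of the 10 genes is named. Of the other lists, genes past the threshold are named, or else the 5 with the largest change, and for context further neighbors chosen after their values were seen. A bound ("at least") sets the mean of the bright group against, on each array of the dim group, what the probe itself read there or the array's lowest value well above background, whichever was brighter. Spike-in scaling used 7 of the 10 external RNA probes. Sequences and gene spans came from RefSeq (GRCh38.p14), where 10 of the 10 genes matched by symbol, or from the probe column of the files. Figures were drawn with matplotlib 3.10.9.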

Additional observations from a re-analysis of the deposited data

How the results depend on the processing

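All 4 arrays lie on 1 slide, so the planned slide block was not run. Normexp, quantile normalization, the 75th percentile over detected probes, the value table, the filter on all 4 arrays and robust eBayes kept 1 probe of the 10 genes called lower and 1 higher. Spike-in scaling, which moved the median of all tested probes to −0.20, called 7 probes of the 10 genes and 12 other imprinted genes lower (9131 of all 20328 probes), and turned COPG2 to −0.18 and GRB10 to −0.086. With no filter on dim probes every call was lost (0 lower and 0 higher in both lists, with 50526 probes fitted), as it was with the replicate block (0 of 20328 probes called, 4400 at an unadjusted p under 0.05) and without any single array (0 to 0 in both lists; over all probes 8 were called without mimic replicate 2 and 0 without each of the others). Deviations of same-numbered arrays correlated at 0.03. This gave no sign of pairing, but 1 such correlation cannot show that the samples were handled unpaired. An intensity trend in eBayes called 2 probes of the 10 genes higher, and 4 other imprinted genes lower and 5 higher, with 1736 of all probes lower and 1347 higher. The methods' t-test, unadjusted at 0.05, gave 2 lower and 3 higher for the 10 genes and 6 lower and 5 higher for the other genes. After Benjamini-Hochberg it gave 0 throughout. No share over all probes is given for this t-test, so its unadjusted counts cannot be set against a background. A change over 1.5-fold with no test gave 0 lower and 1 higher for the 10 genes, and 1 lower and 2 higher for the others. These fold counts too have no share over all probes beside them. DIO3 missed the threshold with robust eBayes (limma adjusted p = 0.0523). The cause of these changes was not tested. The 12 probes were detected on all 4 arrays under both other detection rules. Of the other 4, PEG3 probe A_33_P3424057 passed on 3 arrays by the positive-signal flag and on 2 against negative controls, MEST and the other PEG3 probe on 1 by either, and SNRPN on 0. Dim probes, near −3 on the normalized scale, carry only bounds.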
